A study of Sus scrofa domesticus with 36 samples.

Results

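The genes described here encode collagens, laminins, integrins, matrix metalloproteinases (MMPs) with their inhibitor TIMP1, and the ADAMTS proteases. They were chosen by symbol: every row of the count table whose Ensembl identifier maps to a pig symbol of COL, LAMA, LAMB, LAMC, MMP or TIMP followed by a digit, or starting with ITGA, ITGB or ADAMTS, with ADAMTS4 left out. That rule found 100 genes of 25322 in the table, of which 11804 carry a symbol. They fall into 31 collagen genes, 8 laminin chains, 14 integrin alpha and 7 integrin beta chains, 17 MMPs, TIMP1, and 19 ADAMTS or ADAMTS-like genes. A further 3 genes carry an integrin prefix but encode no integrin subunit (ITGB1BP1, ITGB1BP2 and ITGBL1). Genes of these families that did not map to such a symbol, among them COL1A1, COL4A1, LAMA2 and ITGA7, are not analysed here.

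RNA was sequenced from subcutaneous backfat and from longissimus dorsi muscle of 18 crossbred pigs (Danbred 600 X Newsham NC32 in the first label, with another number after NC in the label of every other library), with 1 library of each tissue from each pig. Both tissues of all pigs were taken 3 weeks after weaning, although the age field of the labels reads 16 to 17 days, and no treatment or mutation is given. The pigs were 9 from the slowest-growing 10 percent and 9 from percentiles 60 to 70 for growth, out of 1054, and the class of a given pig is not in the labels used here, so the comparison is between tissues. The backfat lay between rib 8 and the last rib, and each library is a piece of whole tissue, so fewer cells of a type and less RNA per cell cannot be told apart in any value below.

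Collagens are built from triple helices: fibrillar types such as I, III and V give tensile strength, type IV forms the sheet of the basement membrane, and type VI forms beaded filaments close to cells. Laminins are trimers of an alpha, a beta and a gamma chain that anchor cells to the basement membrane, and integrins are alpha-beta pairs in the cell membrane that bind collagen, laminin or fibronectin and link them to the cytoskeleton. MMPs and ADAMTS enzymes cut matrix proteins, ADAMTS2 and ADAMTS14 trim procollagens before fibrils form, and TIMPs block MMPs. In fat, each adipocyte sits in a basement membrane within a fibrillar stroma, and in muscle each fibre does, with connective tissue sheaths around fibre bundles.

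Levels are CPM, counts scaled by the library total multiplied by the trimmed-mean factor of that library. The factors ran from 1.36 to 1.84 in adipose and from 0.496 to 0.862 in muscle. CPM therefore do not sum to the same total in every library, and a CPM value is not a share of the library's counts. Differences are given as log2 of adipose over muscle, each with its standard error (SE) over 18 libraries per tissue. A difference was called at an adjusted p under 0.05 by edgeR's quasi-likelihood test over all 12542 genes tested. CPM grows with transcript length, so levels are compared between tissues and not between genes. Gene counts per library were 2990913 to 5373406 in adipose and 4716541 to 6216459 in muscle. The muscle fibre markers summed to 71316 to 450750 CPM in muscle and to 119 to 24991 CPM in adipose, and the adipocyte markers to 1343 to 2763 CPM in adipose and 105 to 466 CPM in muscle, so both labels matched their defining genes. Fibroblast markers summed to a median of 4234 CPM in adipose (1953 to 8698) against 790.1 in muscle (394 to 1378), and macrophage markers to 531 against 102. No marker of either list was at 0 in a tissue, and the part of these cells in the differences below was not tested. Trimmed-mean scaling put the median gene at a log2 difference of 0.14, whereas scaling by library totals alone put it at 1.505, so a small difference of either sign depends on that choice.

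Some libraries stood apart for these genes. In the adipose library of pig Sample_391, COL2A1, the collagen of cartilage fibrils, was at 763 CPM, and in that of pig Sample_835 at 222 CPM. The other 16 adipose libraries held 4.57 to 51.3 CPM, with a median of 26.0. COL9A1, which decorates cartilage fibrils, was at 50.7 CPM in pig Sample_391 and 16.4 in pig Sample_835 and at most 1.18 CPM elsewhere in adipose. Genes outside the families moved with them: ACAN, the cartilage proteoglycan aggrecan, was at 82.0 and 32.6 CPM in those libraries and at most 4.94 CPM in the rest, and HAPLN1, its link protein, at 15.6 and 9.28 against at most 1.33 CPM. MATN1 and MATN3, matrilins of cartilage, were also highest in the same pair. SOX9, a transcription factor of cartilage and other tissues, was not: it was highest in adipose of pig Sample_659 (11.7 CPM), with 8.56 CPM in pig Sample_391 and 5.43 CPM in pig Sample_835. The whole list of 7 cartilage and bone markers, which holds further genes, summed to a median of 136.6 CPM in adipose (38.2 to 365.5). In muscle the sum had a median of 23.0 CPM (11.4 to 249.8). Pig Sample_889 stood apart in another way: of the 68 genes called higher in adipose, 12 were not higher in its own adipose than in its own muscle, and it was the only such pig for 10 of them, COL1A2, COL2A1, COL8A1, COL11A1, COL11A2, COL12A1, ITGA2, ITGA11, LAMC1 and MMP16. In this pig COL12A1 was at 59.1 CPM in adipose, the lowest of that tissue, and at 139 CPM in muscle, the highest there. Whether tissue sampling had a part in either pattern was not tested.

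After the filter on low counts, 84 of the 100 genes were tested. Of these, 68 had higher levels in adipose, 9 had higher levels in muscle, and 7 did not pass. Among all genes tested, 85.9% passed, 46.7% with more in adipose and 39.2% with more in muscle. The counts per family or class below are to be read beside these shares. The median log2 difference was 1.68 over the 84 genes and 0.137 over all 12542. At least 2-fold differences were called for 58 on the adipose side (27.3% of all genes) and 5 on the muscle side (20.9%). A gene that passed the filter through its high tissue alone was bound to differ, so the 16 untested genes count too: without the filter, 78 of 100 were higher in adipose and 9 in muscle, against 44.9% and 28.7% of 20197 genes. All 18 pigs agreed in direction for 49 genes on the adipose side (28.6% of all genes) and 5 on the muscle side (25.2%). The ranges of the tissues did not overlap for 32 genes with adipose above (14.8% of all genes) and for 3 with muscle above (17.6%). Without pigs Sample_391 and Sample_835 the counts were 68 and 10, and without pig Sample_889 they were 69 and 8. Counts on these genes made up 5.19% ± 1.48 of the gene counts in adipose and 0.563% ± 0.203 in muscle (SD, n = 18). Those are shares of library totals, without the trimmed-mean factor. In CPM, collagens summed to a mean of 27873 in adipose and 6363 in muscle, and laminins to 1871 and 1052. The 3 integrin-named partners went the other way, at 97.4 and 285.8 CPM.

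**Figure D1:**
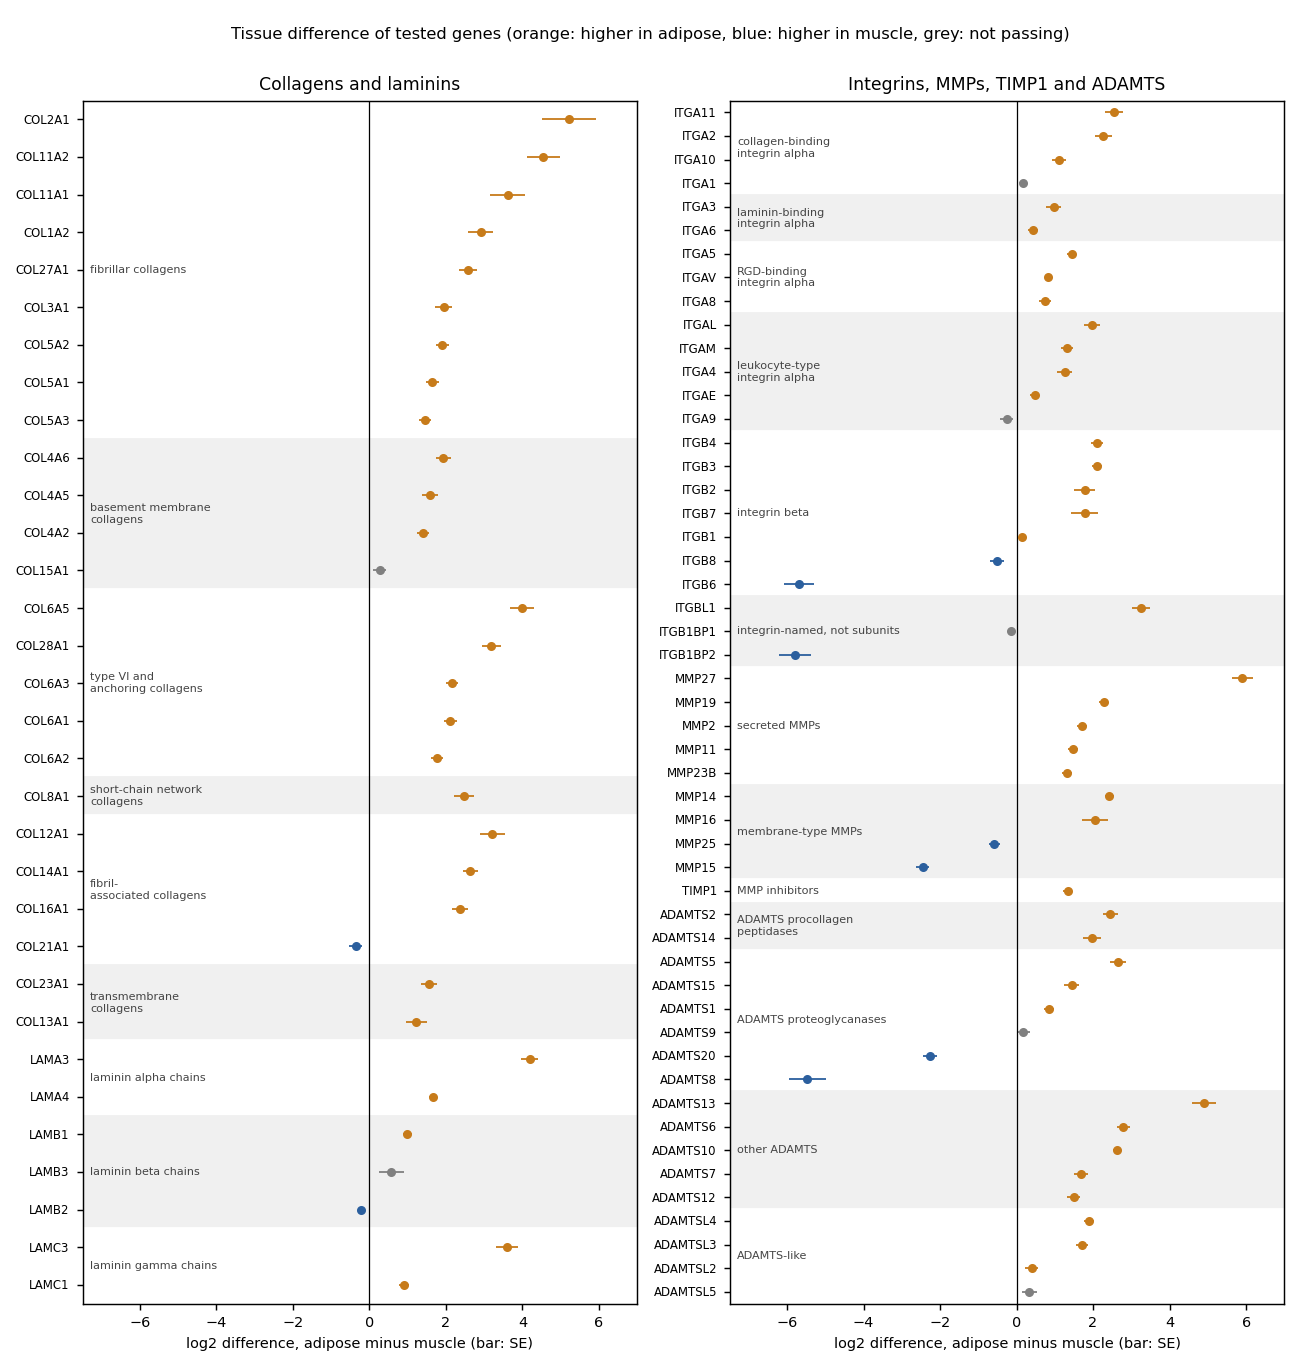
Log2 difference (adipose minus muscle, x axis, bars SE, 18 libraries per tissue) of 83 of the 84 tested genes, grouped by family and role (shaded bands). The band labelled type VI and anchoring collagens holds only type VI chains and COL28A1. Most genes lie to the right of 0 (67 higher in adipose, orange), 9 lie to the left (blue, from LAMB2 at -0.22 to ITGB1BP2 at -5.79), and 7 did not pass (grey).

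Fibrillar collagens were higher in adipose without exception among the 9 tested chains, against 46.7% of all genes, with a median log2 difference of 2.57. COL3A1, the chain of type III collagen, ranged from 6412 to 21579 CPM in adipose (median 11258) and from 872 to 5919 CPM in muscle (median 2979). Its ranges did not overlap, and it was higher in adipose in all 18 pigs by 1.94 (SE 0.225, adjusted p = 3.73e-10). COL1A2, a chain of type I collagen, ranged from 2127 to 23745 CPM in adipose (median 5739) and from 157 to 2750 CPM in muscle (median 676). It differed by 2.91 (SE 0.323) in 17 of 18 pigs, and pig Sample_889 was the exception, with 2127 CPM in adipose and 2750 CPM in muscle. The type V chains, which start and thin fibrils, followed the same pattern: COL5A2 was at 732 ± 251 CPM in adipose against 195 ± 79.0 in muscle (SD, n = 18), and the log2 differences were 1.91 for COL5A2, 1.65 for COL5A1 and 1.46 for COL5A3. None of the type V chains overlapped between tissues, whereas 14.8% of all genes lay higher in adipose without overlap.

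The cartilage-type fibrillar chains had the farthest differences of the class and the widest spread. COL2A1 ranged from 4.57 to 763 CPM in adipose and from 0 to 13.8 CPM in muscle, a log2 difference of 5.22 (SE 0.713, adjusted p = 2.05e-08). That value was 3.78 without pigs Sample_391 and Sample_835, 4.62 with pig as a block, 4.12 by DESeq2 and 5.91 without pig Sample_889. COL11A2 was at a median of 205 CPM in adipose (26.5 to 1048) and 6.26 in muscle (2.73 to 31.1), and COL11A1 at 299 (27.1 to 1525) and 16.5 (4.19 to 124). Both encode chains of type XI collagen, which nucleates cartilage fibrils, and both peaked in adipose of pig Sample_391 and were lowest there in pig Sample_889. Their differences of 4.55 (SE 0.431) and 3.61 (SE 0.453) were 4.27 and 3.30 without pigs Sample_391 and Sample_835. All 9 fibrillar chains were still higher in adipose without those pigs (median 2.51). COL27A1, a fibrillar chain first known from cartilage, differed by 2.57 with no overlap, at 11.97 ± 5.18 CPM in adipose against 1.97 ± 1.07 in muscle (SD, n = 18), and was highest in adipose of pig Sample_889, not of pig Sample_391.

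**Figure D2:**
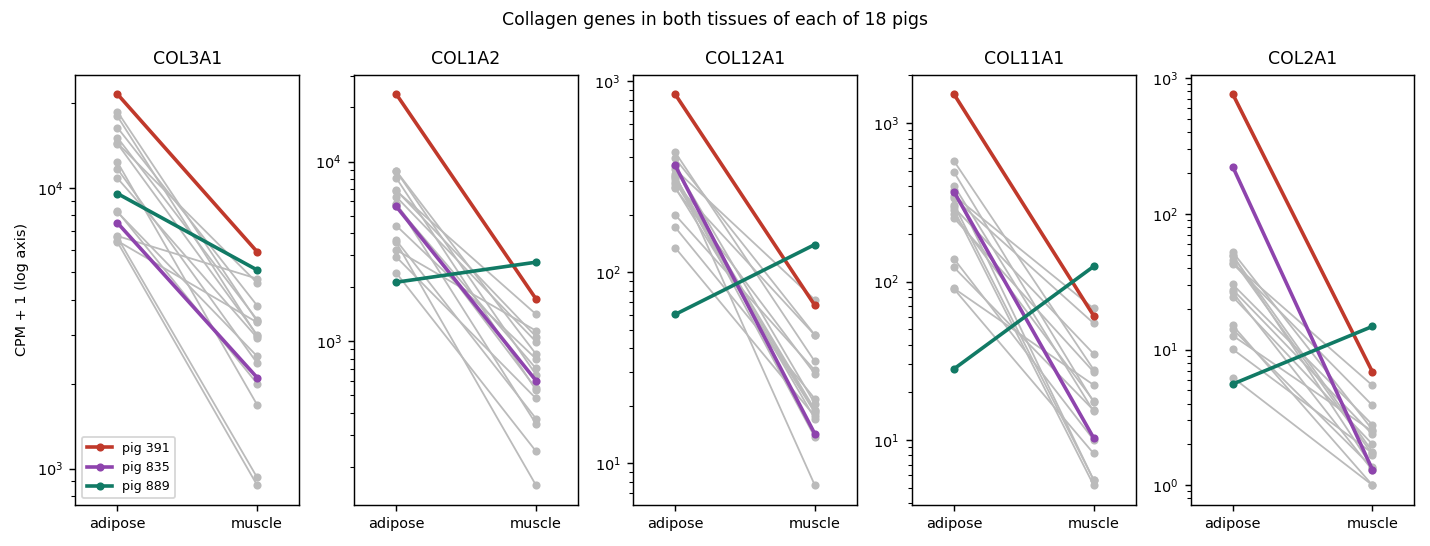
CPM plus 1 (log axis) of COL3A1, COL1A2, COL12A1, COL11A1 and COL2A1 in both tissues of each of the 18 pigs, with lines joining the libraries of 1 animal. Lines fall from adipose to muscle except those of pig Sample_889 (green) for every gene shown but COL3A1, and COL2A1 in adipose of pigs Sample_391 (red, 763 CPM) and Sample_835 (purple, 222 CPM) lies above the other animals.

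Within the counts of the 9 fibrillar genes, the makeup differed between tissues. COL1A2 took 29.2% ± 7.08 of them in adipose and 17.7% ± 5.19 in muscle, higher in adipose in 17 of 18 pigs, and COL3A1 took 58.6% ± 7.82 and 68.9% ± 6.09, higher in muscle in 16 of 18 (SD, n = 18). The 3 type V chains took larger shares in muscle as well, with COL5A1 at 3.59% ± 0.955 in adipose and 5.04% ± 1.18 in muscle. Such a share does not depend on the scaling between tissues, but it does depend on transcript length, and it is given as a description with no test. Shares here and below cover only the genes analysed. COL1A1, COL4A1, LAMA2 and ITGA7 are in none of these counts, and the shares could differ with them.

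Type VI collagen chains and COL28A1 made up 5 tested genes, all higher in adipose in 18 of 18 pigs with no overlap (median 2.15). Of all genes, 28.6% were higher in adipose in all 18 pigs and 14.8% lay above without overlap. COL6A3, the long chain of type VI collagen, ranged from 1342 to 3571 CPM in adipose (median 2016) and from 236 to 992 CPM in muscle (median 487), a log2 difference of 2.15 (SE 0.162, adjusted p = 3e-15). COL6A1 and COL6A2, its partners in the trimer, differed by 2.11 (SE 0.169) and 1.76 (SE 0.160). COL6A5, an alternative long chain, was at 19.4 ± 11.5 CPM in adipose against 1.19 ± 0.801 in muscle (SD, n = 18; log2 difference 3.99, SE 0.311). COL28A1, a relative of type VI collagen, differed by 3.19 (SE 0.247). These 5 genes took nearly equal shares of the counts on the collagens analysed in both tissues, 15.8% ± 3.77 in adipose and 16.5% ± 2.78 in muscle. The share was higher in adipose in 8 of 18 pigs.

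Fibril-associated collagens, which sit on the surface of fibrils, split by gene. COL14A1 ranged from 388 to 1886 CPM in adipose (median 980) and from 50.8 to 383 CPM in muscle (median 146), without overlap, and differed by 2.63 (SE 0.198). COL16A1 also did not overlap and differed by 2.37 (SE 0.200). COL12A1 was farther apart, at a median of 312 CPM (59.1 to 858) in adipose and 20.1 CPM (6.66 to 139) in muscle, a log2 difference of 3.21 (SE 0.324) in 17 of 18 pigs that was 3.56 without pig Sample_889. COL21A1 was the only collagen called higher in muscle, by 0.36 (log2 difference -0.36, SE 0.165, adjusted p = 0.0403). It ranged from 5.24 to 18.2 CPM in adipose and from 5.47 to 24.6 CPM in muscle, was higher in muscle in 12 of 18 pigs, and its call did not hold without pig Sample_889 (-0.30), without pigs Sample_731, Sample_391, Sample_176 and Sample_911 (-0.30) or without the filter (-0.34), nor did its sign with library totals (1.03).

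Basement membrane collagens had 3 of 4 tested chains higher in adipose (46.7% of all genes). Their median of 1.49 was below that of the fibrillar chains. COL4A2, a chain of the common type IV network, ranged from 613 to 2097 CPM in adipose (median 1476) and from 272 to 944 CPM in muscle (median 537). It was higher in adipose in all 18 pigs by 1.39 (SE 0.154, adjusted p = 1.01e-10), although the ranges overlapped. COL4A6 and COL4A5, chains of a rarer network, differed by 1.93 (SE 0.199) and 1.58 (SE 0.209). COL15A1, which ties basement membrane to fibrils, was at 34.5 ± 12.5 CPM in adipose against 28.7 ± 11.7 in muscle (SD, n = 18) and did not pass (0.27, SE 0.176, adjusted p = 0.154). With pig as a block it did pass (0.29, adjusted p = 0.0145). Of the counts on the collagens analysed, basement membrane collagens held 5.95% ± 2.37 in adipose and 10.1% ± 2.90 in muscle, higher in muscle in 17 of 18 pigs. COL1A1 and COL4A1 are absent from these counts.

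The remaining collagens were low. COL8A1, a short-chain collagen of vessel walls, was at 21.5 ± 10.4 CPM in adipose against 3.85 ± 2.16 in muscle (2.47, SE 0.252), higher in adipose in every pig but Sample_889. Among collagens that span the cell membrane, COL23A1 differed by 1.55 (SE 0.215) and COL13A1, known from the neuromuscular junction, by 1.23 (SE 0.266), at 2.41 ± 1.01 and 1.01 ± 0.875 CPM (SD, n = 18). COL17A1, the collagen of hemidesmosomes in epithelia, did not reach the filter on low counts. Its adipose values ran from 0.524 to 110 CPM with a median of 10.54, and its muscle values from 0 to 1.92 CPM. The 4 adipose libraries with the most COL17A1, pigs Sample_491, Sample_659, Sample_998 and Sample_889, were also the 4 with the most EPCAM, an epithelial adhesion gene, and EPCAM ranged from 0 to 43.6 CPM in adipose and was at most 0.721 CPM in muscle. The same 4 were highest for the epithelial keratins KRT8 and KRT18. CDH1, the cadherin of epithelia, shared 2 of its 4 highest adipose libraries with COL17A1, and CLDN4, a claudin of tight junctions, shared 0. The whole list of 7 epidermis and gland markers summed to a median of 140.8 CPM in adipose (54.1 to 439.8) and 143.1 CPM in muscle (99.1 to 194.1). Of its 5 tested genes, 3 were higher in adipose, 1 was higher in muscle (log2 difference -3.85) and 1 did not pass. The part of epithelial cells in the COL17A1 values was not tested. Without the filter COL17A1 differed by 4.52 (SE 0.646). COL4A3, COL4A4, COL10A1 and COL22A1 also stayed untested, with means of at most 1.44 CPM in each tissue.

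Laminin chains were split by type: 6 of 8 were higher in adipose (46.7% of all genes), with a median of 1.33. LAMB2 was higher in muscle (39.2% of all genes), and LAMB3 did not pass. LAMA4, the alpha chain of laminins around vessels and fat cells, ranged from 305 to 463 CPM in adipose (median 368) and from 69.0 to 203 CPM in muscle (median 115). The ranges did not overlap, and the log2 difference was 1.67 (SE 0.105, adjusted p = 1.25e-17). LAMB1 and LAMC1, the widespread beta and gamma chains, differed by 0.99 (SE 0.112) and 0.90 (SE 0.132), in 18 and 17 of 18 pigs. LAMB2, the beta chain concentrated at neuromuscular synapses and in mature basement membranes, was at 300.1 ± 38.9 CPM in adipose against 349 ± 56.5 in muscle (SD, n = 18), with a log2 difference of -0.22 (SE 0.0770, adjusted p = 0.00969) that became 1.16 with library totals. Its ranges, 223 to 363 and 255 to 443.9 CPM, overlapped widely.

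The shift between the beta chains was plainer within the family than in the levels. Laminin counts here are those of the 8 chains analysed, without LAMA2. LAMB2 took 16.3% ± 2.82 of them in adipose (12.1 to 21.3) and 33.4% ± 3.94 in muscle (24.9 to 44.1), higher in muscle in all 18 pigs with no overlap. LAMA4 took 20.9% ± 3.36 in adipose and 11.5% ± 2.02 in muscle, higher in adipose in all 18 pigs with no overlap. LAMB1 held 66.2% ± 6.09 of the counts on the 3 beta chains in adipose and 46.8% ± 4.94 in muscle (SD, n = 18), higher in adipose in 17 of 18 pigs.

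LAMA3 and LAMB3 are chains of the epithelial laminin of hemidesmosomes. LAMA3, the alpha chain, was at 48.4 ± 22.2 CPM in adipose against 2.56 ± 1.29 in muscle (SD, n = 18), with ranges of 26.6 to 99.6 and 0.384 to 5.97 CPM and a log2 difference of 4.19 (SE 0.226, adjusted p = 1.38e-19). LAMB3, the beta chain, was at 5.47 ± 4.06 CPM in adipose against 3.68 ± 2.81 in muscle and did not pass (0.58, SE 0.315, adjusted p = 0.0865), although it did without pigs Sample_731, Sample_391, Sample_176 and Sample_911 (0.88). Of the 4 adipose libraries highest for COL17A1, 3 were among the 4 highest for LAMA3, and all 4 were the highest for LAMB3. LAMC3, a chain outside that laminin, differed by 3.61 (SE 0.288), at 14.2 ± 7.38 and 1.12 ± 0.855 CPM.

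Integrin alpha chains had a lower median than the collagens, 1.04 against 2.11. Of 14 chains, 12 were higher in adipose (46.7% of all genes) and 0 in muscle (39.2%). Among collagen receptors, ITGA11, the fibroblast receptor for fibrillar collagen, was at 17.7 ± 8.73 CPM in adipose against 2.99 ± 1.96 in muscle (SD, n = 18; 2.54, SE 0.240), and ITGA2 differed by 2.27 (SE 0.213). Both were higher in adipose in every pig but Sample_889. ITGA1, the receptor that favours type IV collagen, ranged from 36.02 to 75.6 CPM in adipose (median 53.0) and from 29.96 to 63.7 CPM in muscle (median 50.6) and did not pass (0.17, SE 0.109, adjusted p = 0.136). It was higher in adipose in 9 of 18 pigs, and it passed without pigs Sample_391 and Sample_835 (0.25). Within the counts on the 14 alpha chains analysed, which do not include ITGA7, ITGA1 took 11.2% ± 2.60 in adipose and 21.1% ± 3.36 in muscle. Its share was higher in muscle in all 18 pigs with no overlap, whereas ITGA2 took 8.20% ± 3.08 and 3.50% ± 1.58.

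Receptors for fibronectin and other ligands with an RGD motif were all higher in adipose. ITGA5, the fibronectin receptor chain, ranged from 89.2 to 194 CPM in adipose (median 131) and from 28.4 to 75.7 CPM in muscle (median 46.1), the only alpha chain without overlap, and differed by 1.44 (SE 0.111, adjusted p = 5.92e-15). ITGAV differed by 0.82 (SE 0.0832) in all 18 pigs and ITGA8 by 0.74 (SE 0.156) in 17. The laminin receptors ITGA3 and ITGA6 were nearer, at 0.97 (SE 0.205) and 0.42 (SE 0.133). Leukocyte-type chains were higher in adipose for 4 of 5: ITGAL, the lymphocyte chain of LFA, was at 52.7 ± 23.8 CPM and 13.3 ± 6.03 CPM (SD, n = 18; 1.98, SE 0.216), ITGAM by 1.32 (SE 0.152) and ITGA4 by 1.26 (SE 0.192). Lymphocyte markers summed to a median of 69.8 CPM in adipose (24.2 to 153) and 19.5 CPM in muscle (3.34 to 42.6), and their part in these values was not tested. ITGA9 did not pass (-0.26, SE 0.179, adjusted p = 0.170), but it was called higher in muscle without pigs Sample_391 and Sample_835 (-0.42) and its sign turned with library totals (1.09).

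Integrin beta chains were 5 of 7 higher in adipose (46.7% of all genes) and 2 in muscle (39.2% of all genes), with a median of 1.78. ITGB1, the partner of most alpha chains, was nearly level, at 335 to 528 CPM in adipose (median 404) and 307 to 470 CPM in muscle (median 373). Its difference of 0.15 (SE 0.0614, adjusted p = 0.0229) was the smallest called on the adipose side, and it did not pass with DESeq2 size factors in edgeR (0.12), without pigs Sample_731, Sample_391, Sample_176 and Sample_911 (0.14) or without pigs Sample_656, Sample_572 and Sample_735 (0.13). ITGB3, the vascular and platelet chain, and ITGB4, the hemidesmosome chain, differed by 2.10 (SE 0.135) and 2.11 (SE 0.160) with no overlap, at 54.1 ± 9.73 against 12.7 ± 4.61 CPM and 49.7 ± 12.1 against 11.4 ± 5.12 CPM (SD, n = 18). The leukocyte chains ITGB2 and ITGB7 differed by 1.78 (SE 0.279) and 1.78 (SE 0.348) with wide spread, and ITGB2 ranged from 31.3 to 168 CPM in adipose and from 5.34 to 65.05 CPM in muscle.

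ITGB6, which pairs with the alpha V chain and can release active TGF-beta, ran the other way. It ranged from 0 to 4.55 CPM in adipose (median 0.223) and from 5.79 to 51.4 CPM in muscle (median 27.4), without overlap. The log2 difference was -5.69 (SE 0.386, adjusted p = 2.43e-16), higher in muscle in all 18 pigs. Its highest adipose value came from pig Sample_731, whose adipose library also had the most ACTA1, the skeletal muscle actin, at 17526 CPM. Without both tissues of the 4 pigs whose adipose was richest in ACTA1 (pigs Sample_731, Sample_391, Sample_176 and Sample_911) the difference was -7.11. ITGB8, another partner of the alpha V chain, was at 3.22 ± 1.10 CPM in adipose against 4.64 ± 2.05 in muscle (SD, n = 18; -0.51, SE 0.176, adjusted p = 0.0073), with overlap and a turn of sign with library totals (0.85). In shares of integrin beta counts, ITGB6 held 0.103% ± 0.186 in adipose and 6.48% ± 2.42 in muscle, ITGB1 67.1% ± 7.86 and 81.2% ± 5.13, and ITGB3 8.66% ± 1.40 and 2.68% ± 0.759.

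The genes that carry the integrin prefix without being subunits went 3 ways. ITGB1BP2, melusin, a muscle protein that binds the tail of the beta 1 chain, ranged from 0.607 to 25.5 CPM in adipose (median 2.39) and from 66.6 to 402 CPM in muscle (median 230). It did not overlap and differed by -5.79 (SE 0.408, adjusted p = 8.3e-16), or -6.78 without pigs Sample_731, Sample_391, Sample_176 and Sample_911. ITGB1BP1, a broadly present protein that binds the same tail, was at 35.0 ± 5.17 CPM in adipose against 38.6 ± 6.45 in muscle (SD, n = 18) and did not pass (-0.14, SE 0.0795, adjusted p = 0.0934), and its sign turned with library totals (1.22). ITGBL1, a secreted protein with integrin-like repeats, was at 57.9 ± 27.1 and 6.01 ± 2.66 CPM, higher in adipose by 3.25 (SE 0.238) with no overlap.

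**Figure D3:**
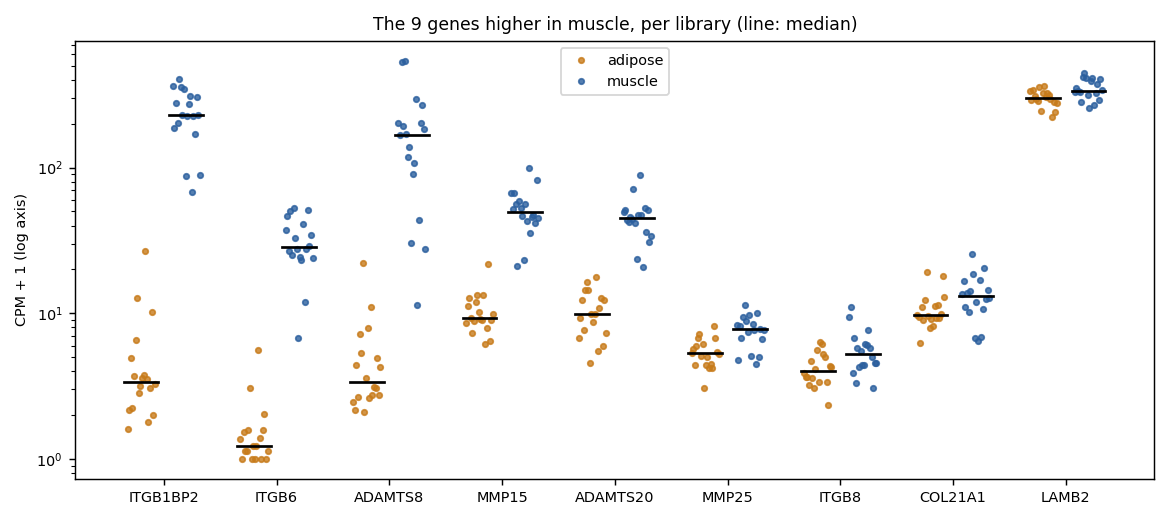
CPM plus 1 (log axis) of the 9 genes called higher in muscle, in each of 18 adipose (orange) and 18 muscle (blue) libraries, with the median as a line. ITGB1BP2, ITGB6 and ADAMTS20 do not overlap between tissues, while MMP25, ITGB8, COL21A1 and LAMB2 overlap widely.

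MMPs had 9 tested genes, 7 of them higher in adipose (46.7% of all genes) and 2 in muscle (39.2%), with a median of 1.70. MMP2, the gelatinase that also cuts basement membrane collagen, ranged from 328 to 769 CPM in adipose (median 497) and from 98.6 to 307 CPM in muscle (median 153), without overlap. Its difference was 1.70 (SE 0.135, adjusted p = 1.29e-14). MMP14, the membrane-anchored enzyme that activates MMP2 and cuts fibrillar collagen, was at 238 ± 35.6 CPM and 44.2 ± 15.1 CPM (SD, n = 18), also without overlap, and differed by 2.43 (SE 0.127). MMP19, MMP11 and MMP23B differed by 2.28 (SE 0.114), 1.48 (SE 0.133) and 1.31 (SE 0.135) in all 18 pigs. MMP16, another membrane-type enzyme, differed by 2.05 (SE 0.329), with pig Sample_889 as the exception. TIMP1, the inhibitor that blocks most secreted MMPs, was at 66.3 ± 18.9 CPM in adipose against 26.3 ± 6.89 in muscle (SD, n = 18; 1.33, SE 0.129) and higher in adipose in all 18 pigs.

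MMP27 was the farthest apart of all 84 genes. It ranged from 22.7 to 90.8 CPM in adipose (median 47.9) and from 0 to 2.49 CPM in muscle (median 0.624), a log2 difference of 5.90 (SE 0.276, adjusted p = 2.01e-21) in all 18 pigs with no overlap. In the order of a Sscrofa11.1 gene table, MMP27 lies in a run of MMP genes with MMP7, MMP20, MMP8, MMP1, MMP3, MMP12 and MMP13. MMP3 is not among the genes analysed here. The other 6 neighbours did not reach the filter, and their means were at most 1.03 CPM in adipose and at most 0.0733 CPM in muscle. MMP9 and MMP17 were low as well, at 1.42 ± 2.29 and 0.476 ± 0.163 CPM in adipose (SD, n = 18). Without the filter, 13 of 17 MMPs were higher in adipose, against 44.9% of all genes.

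The muscle side of the MMP family consisted of membrane-type enzymes. MMP15, a relative of MMP14, ranged from 5.17 to 20.6 CPM in adipose (median 8.25) and from 19.9 to 98.5 CPM in muscle (median 48.9). It was higher in muscle in all 18 pigs, with a log2 difference of -2.45 (SE 0.173, adjusted p = 4.68e-16), and the ranges touched only between adipose of pig Sample_889 and muscle of pig Sample_231. MMP25, an enzyme known from leukocytes, was at 4.43 ± 1.26 and 6.65 ± 1.93 CPM (SD, n = 18; -0.58, SE 0.143, adjusted p = 0.000302) and turned to 0.80 with library totals. Within MMP counts, MMP15 took 0.923% ± 0.383 in adipose and 15.9% ± 5.33 in muscle without overlap, MMP14 took 23.2% ± 2.54 and 13.5% ± 2.49, and MMP2 held 51.1% ± 4.37 and 49.1% ± 6.63.

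**Figure D4:**
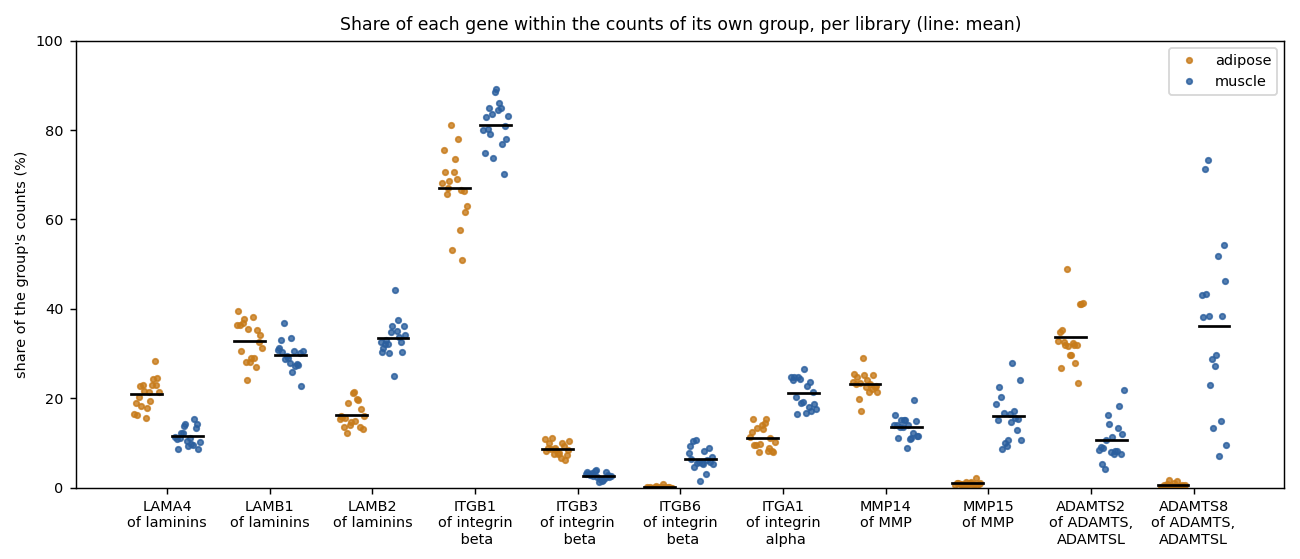
Share (%) of single genes within the counts on the analysed genes of their own family in each of 18 adipose (orange) and 18 muscle (blue) libraries, with the mean as a line. LAMB2, ITGA1, ITGB6, MMP15 and ADAMTS8 hold larger shares in muscle, and LAMA4, ITGB3 and ADAMTS2 in adipose, in all 18 pigs and without overlap.

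ADAMTS genes were mostly higher in adipose, 13 of 17 tested (46.7% of all genes). On the muscle side were 2 (39.2% of all genes), and the median was 1.69. ADAMTS2, the main procollagen peptidase for types I and III, ranged from 151 to 578 CPM in adipose (median 223) and from 12.3 to 95.0 CPM in muscle (median 39.3), without overlap. Its difference was 2.45 (SE 0.195, adjusted p = 1.96e-14), and that of its relative ADAMTS14 was 1.98 (SE 0.234). ADAMTS13, which cuts von Willebrand factor, was at 10.2 ± 4.36 CPM in adipose against 0.290 ± 0.356 in muscle (SD, n = 18; 4.90, SE 0.318). ADAMTS10 and ADAMTS6, linked to fibrillin microfibrils, differed by 2.63 (SE 0.112) and 2.78 (SE 0.169) without overlap, and ADAMTS7 and ADAMTS12, which cut cartilage oligomeric matrix protein, by 1.69 (SE 0.181) and 1.49 (SE 0.166). Among the ADAMTS-like proteins, which lack a protease domain, ADAMTSL4 and ADAMTSL3 differed by 1.89 (SE 0.134) and 1.71 (SE 0.148) without overlap. ADAMTSL2 was nearer (0.40, SE 0.174, adjusted p = 0.0324) and did not pass without pigs Sample_391 and Sample_835 (0.26) or without pigs Sample_731, Sample_391, Sample_176 and Sample_911 (0.31), and ADAMTSL5 did not pass (0.33, SE 0.189, adjusted p = 0.0986) but did without pig Sample_889 (0.42).

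The ADAMTS enzymes that cut proteoglycans were divided. ADAMTS8 ranged from 1.09 to 21.1 CPM in adipose (median 2.37) and from 10.4 to 542 CPM in muscle (median 167), a log2 difference of -5.47 (SE 0.472, adjusted p = 2.54e-13). It was higher in muscle in all 18 pigs, its lowest muscle value was in pig Sample_735 and its highest adipose value in pig Sample_391, and within muscle it had the widest spread of the 100 genes (SD of log2 CPM 1.49). ADAMTS20, an enzyme that cuts versican, was at 9.37 ± 3.82 CPM in adipose against 44.8 ± 15.7 in muscle (SD, n = 18; -2.25, SE 0.183) with no overlap. ADAMTS5 and ADAMTS15 lay on the adipose side, by 2.65 (SE 0.214) and 1.44 (SE 0.198), as did ADAMTS1 by 0.85 (SE 0.140). ADAMTS9 was at 47.7 ± 19.0 and 42.2 ± 11.7 CPM and did not pass (0.18, SE 0.160, adjusted p = 0.294). In shares of ADAMTS and ADAMTS-like counts, ADAMTS8 held 0.548% ± 0.457 in adipose and 36.2% ± 19.2 in muscle, and ADAMTS2 33.6% ± 6.14 and 10.7% ± 4.59 (SD, n = 18), both without overlap. ADAMTS16 and ADAMTS19 did not reach the filter. ADAMTS16 was at 1.10 ± 0.826 CPM in adipose against 2.94 ± 1.28 in muscle, and without the filter it was higher in muscle (-1.36, SE 0.267).

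Genes that act with these families were read from lists chosen with earlier results known. Beside their counts stand the shares of all genes tested, 46.7% higher in adipose and 39.2% higher in muscle. Of 19 tested genes for collagen folding, processing and crosslinking, 16 were higher in adipose and 1 in muscle (median 1.26), and PCOLCE, the enhancer of procollagen C-terminal trimming, was at 714 ± 189 and 183 ± 76.6 CPM (SD, n = 18; 1.96, SE 0.166). P4HA1, a proline hydroxylase subunit, differed by 1.14 (SE 0.171), and P3H2, which hydroxylates type IV collagen, was the exception on the muscle side (-0.75, SE 0.131), chosen after its value was seen. All 26 other matrix proteins tested were higher in adipose (median 2.39), among them DCN, decorin, by 2.62 (SE 0.192), and POSTN, periostin, by 5.04 (SE 0.318). Of 10 tested genes listed for proteolysis and its control outside these families, 8 were higher in adipose. They included the protease CTSB by 1.05 (SE 0.134) and SERPINF1, of the serpin family, by 2.12 (SE 0.198). Of 15 genes of TGF-beta signalling 12 were higher in adipose, including CCN2 by 2.80 (SE 0.353) and TGFBR3 by 2.51 (SE 0.132), with 1 higher in muscle.

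The lists of basement membrane partners and of integrin adhesion machinery split much as all genes did (46.7% higher in adipose, 39.2% in muscle). Of 13 basement membrane partners, 7 were higher in adipose and 4 in muscle (median 0.40). HSPG2, perlecan, and BCAM, a laminin receptor, were higher in adipose by 0.40 (SE 0.143) and 0.52 (SE 0.183), while the 4 on the muscle side were DMD, dystrophin, at -3.63 (SE 0.158), SGCA, a sarcoglycan that works with it, at -2.57 (SE 0.123), FRAS1 at -4.11 (SE 0.199) and FREM2 at -2.89 (SE 0.162). None of these 4 overlapped between tissues, and they were named after their values were seen. Of 18 genes of the adhesion machinery inside the cell, 9 were higher in adipose and 7 in muscle (median 0.19). TLN1, talin, which switches integrins on, was higher in adipose by 0.88 (SE 0.0861), and VCL, vinculin, which binds talin, was at 223 ± 28.1 CPM in adipose against 427 ± 94.3 in muscle (SD, n = 18; -0.94, SE 0.0932), with a turn of sign with library totals (0.48).

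The next comparison asked whether a pig with a high level in one tissue had a high level in the other. Over 18 pigs, Spearman's rho between tissues passed for 0 of 72 genes that reached 1 CPM in at least 15 libraries of each tissue, against 0.576% of all 11109 genes (permutation test, adjusted over all genes). At an unadjusted p under 0.05 there were 10 positive and 0 negative genes, and 13.8% of all genes were positive at that level. The median rho was 0.191 over the 72 genes and 0.185 over all. The highest values were those of the leukocyte chains: ITGB7 had rho 0.746 (permutation p = 0.00062, adjusted p = 0.0656) and Pearson's r 0.718, and ITGB2 had rho 0.713 (permutation p = 0.00129, adjusted p = 0.0858) and r 0.740, which fell to 0.702 and 0.640 without the 2 pigs farthest from the median. By Pearson's r both passed (adjusted p = 0.0363 and 0.0366). ITGAL followed at rho 0.674 (adjusted p = 0.116). COL3A1 had rho 0.503 (permutation p = 0.0354, adjusted p = 0.304) and r 0.517, or 0.312 without the 2 farthest pigs.

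A last comparison asked which genes went up and down with COL3A1 between animals, within each tissue. In adipose, 0 of 83 genes passed after adjustment over 12601 genes, and 0 genes did in all (0%). At an unadjusted p under 0.05 there were 14 positive genes, against 6.86% of all genes, and 8 of them were among the 25 collagens, 24 of which had a rho above 0. COL5A2 had the highest value (rho 0.812, permutation p = 9e-05, adjusted p = 0.151; r 0.869, or 0.831 without the 2 farthest libraries). COL14A1 followed at 0.754, ADAMTS12 at 0.732, COL5A1 at 0.723 and COL1A2 at 0.721, and ITGB4 was the only negative one at that level (-0.538, permutation p = 0.0233), against 4.85% of all genes. The collagens positive at that level numbered 7 without pigs Sample_391 and Sample_835, 9 without pig Sample_889 and 5 without pigs Sample_731, Sample_391, Sample_176 and Sample_911, where the positive genes of all families fell from 14 to 8. In the same adipose libraries COL3A1 moved with the trimmed-mean factor (rho -0.670, permutation p = 0.00315; r -0.660, or -0.548 without the 2 farthest) and with the share of counts in no gene (rho -0.511, permutation p = 0.0323; r -0.473, or -0.563), and the part of these in the relations was not tested.

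Muscle gave more positive relations. There, 0 of 73 genes passed after adjustment (0% of all 11702 genes), but 35 were positive at an unadjusted p under 0.05, against 6.19% of all genes, and 0 were negative, against 4.5%. Of 18 collagens, all had a rho above 0 and 16 were positive at that level (median rho 0.644, against -0.032 over all genes). COL5A2 was highest again (rho 0.849, permutation p = 3e-05, adjusted p = 0.0878; r 0.919, or 0.868 without the 2 farthest libraries), followed by COL5A1 at 0.789, ADAMTS7 at 0.775, ADAMTS2 at 0.773 and COL6A2 at 0.752. Among enzymes, MMP23B, MMP11, MMP14, MMP2 and MMP19 were positive at the same level (rho 0.564 to 0.713). Laminins LAMA3, LAMB1, LAMA4 and LAMB2 were as well (0.494 to 0.657), while of 14 integrin alpha chains 2 were, ITGA2 and ITGA11. By Pearson's r, 13 of the 73 passed (207 of all genes), 8 of them collagens.

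COL3A1 in muscle was lowest in pigs Sample_572 (872 CPM) and Sample_735. It was highest in pigs Sample_391 (5919 CPM) and Sample_889. Muscle of pigs Sample_572 and Sample_735 also had the least ACTA1, 25059 and 22408 CPM, against at least 68879 CPM in the rest. The part of muscle fibre RNA in the relations was not tested. The number of collagens positive at the unadjusted level was 15 of 20 without pigs Sample_656, Sample_572 and Sample_735, 13 of 18 without pigs Sample_391 and Sample_835, and 13 of 18 without pig Sample_889. In the same muscle libraries COL3A1 moved with the total gene count (rho 0.604, permutation p = 0.00907; r 0.663, or 0.498 without the 2 farthest). By Pearson's r it also moved with the share of counts in no gene (r -0.626, permutation p = 0.00751; rho -0.288) and with the trimmed-mean factor (r -0.517, permutation p = 0.0276; rho -0.267), and without the 2 farthest libraries r was -0.161 and 0.157. The part of these in the relations was not tested. With 100000 permutations, the smallest p possible is 1e-05, which a single gene carries to an adjusted p of 0.117 in muscle and 0.126 in adipose.

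**Figure D5:**
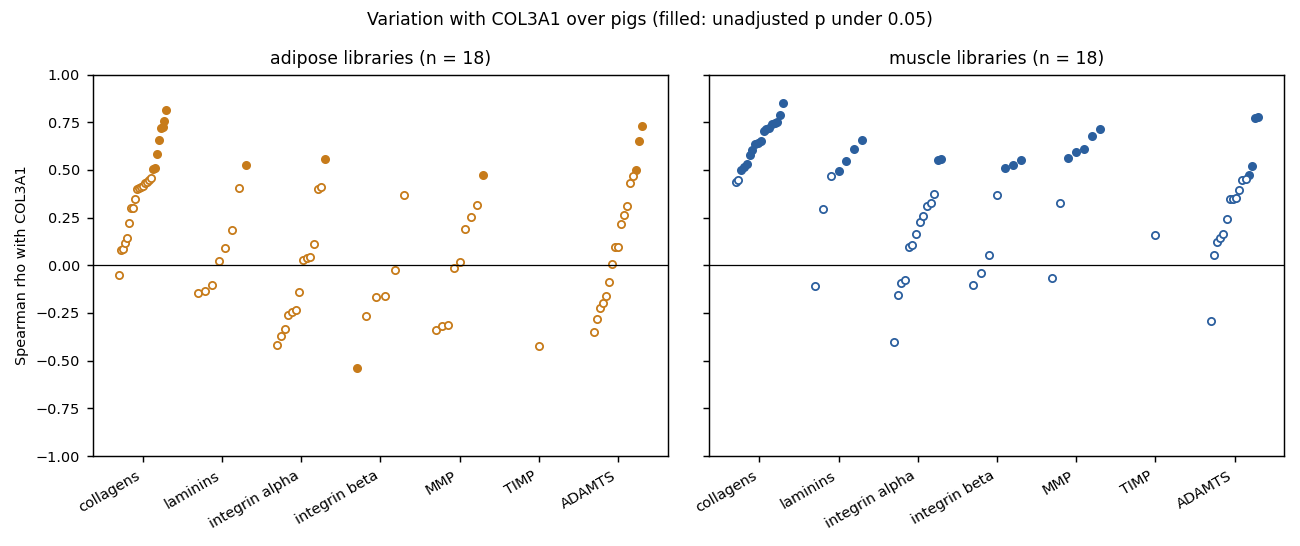
Spearman's rho with COL3A1 over 18 adipose libraries (left) and 18 muscle libraries (right) for each gene of the families (points, integrin-named partners not shown), filled where the unadjusted permutation p is under 0.05. Collagens lie above 0 in both tissues except 1 in adipose, with 8 of 25 filled in adipose and 16 of 18 in muscle.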

How the data were processed

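The authors deposited 1 table of expected counts per Ensembl pig gene, not normalised, for 36 libraries (2 × 100-base reads on a HiSeq 2000, per the labels' protocols). Per the submitters' processing notes the tools were GSNAP and HTSeq. Their versions, build, annotation and strand handling were not given in these sources, so antisense or overlapping genes could not be told apart. In the deposited expected counts 35.1% of gene values end in 0.5. They were rounded for all tests. A further 5 rows name no gene and stayed out: counts in no gene were 34.5% ± 5.60 of adipose and 19.9% ± 4.01 of muscle libraries (SD, n = 18). Columns left unused numbered 0.

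Tissues were compared in edgeR 4.0.16 (R 4.3.3) by a robust quasi-likelihood fit on tissue alone, with trimmed-mean factors, the default filter on low counts and Benjamini-Hochberg adjustment. Correlations used log2 CPM (prior count 2), Spearman's rho and 100000 two-sided permutations of the pig numbers, adjusted over all genes of each of 3 families of relations, in Python 3.11.15. Both tests were checked on simulated data. Symbols came from a table of current names, with 13518 identifiers left without one. Of the 84 genes tested, 1 is counted but not reported here by name. Members and lists were chosen with earlier results of these data known. Named genes are, per list, the 3 with the highest mean CPM, the 8 farthest apart in each direction, those highest in correlation or spread, those against their list's direction, and 2 per accompanying list. Alternatives were library totals, DESeq2 1.42.0 and its size factors, no filter, unrounded counts, pig as a block and sets of pigs left out. Leaving out pigs Sample_391 and Sample_835, and pig Sample_889, was chosen after seeing the data. The numbers pair the libraries, since both of a number are from 1 animal: deviations from the tissue means correlated at 0.236 on average within pigs (0.0973 to 0.359) and at -0.0138 between pigs. The groups have 18 animals, and depth limits mainly genes near 1 CPM.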

Additional observations from a re-analysis of the deposited data

How the results depend on the processing

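Scaling by library totals changed these results most. It left 5 genes of these families higher in muscle, with 79 higher in adipose, and gave 10148 and 1520 of all genes on the adipose and muscle sides, moving the adipose share of calls from 54.3% to 87% (88.3% to 94% for these families). The muscle side then held 1 MMP, 1 integrin beta chain, 0 collagens and 0 laminins, and 2 integrin-named partners were higher in adipose. The log2 differences that turned were those of MMP25 (0.80), COL21A1 (1.03), ITGA9 (1.09), ITGB8 (0.85), ITGB1BP1 (1.22), LAMB2 (1.16) and VCL (0.48). Without the filter, 9077 of all genes and 13 MMPs were higher in adipose, since more genes were tested, and 0 collagens were higher in muscle, as also without pigs Sample_731, Sample_391, Sample_176 and Sample_911 and without pig Sample_889. Without pigs Sample_391 and Sample_835, 1 integrin alpha chain, ITGA9, was higher in muscle. Pig as a replicate block gave 69 and 9 genes, and only the call of COL15A1 changed (0.29). Between tissues, 2 genes passed by Pearson's r and 4 with library totals, and with COL3A1 in muscle 13 passed by Pearson's r. Where no cause is given here, it was not tested. By total gene counts, adipose libraries were shallower than muscle libraries on average. After the trimmed-mean factors, however, 1 count stood for more CPM in muscle than in adipose, so low muscle values are the coarser ones. The 16 untested genes, apart from COL17A1 and COL9A1, had means of at most 2.94 CPM, which limits the precision of their values.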
